A study of Mus musculus with 11 samples.

Results

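Transcript levels of 10 antioxidant genes were compared between C57BL/6 mouse embryos produced with round spermatids (round spermatid injection, ROSI) and with sperm (intracytoplasmic sperm injection, ICSI). The genes were the 6 peroxiredoxins Prdx1 to Prdx6, thioredoxin (Txn1), and the selenoproteins thioredoxin reductase 1 (Txnrd1), glutathione peroxidase 4 (Gpx4) and selenoprotein S (Selenos). They were chosen from their levels in these same libraries, so their levels and differences are given as a description with no test. All 10 were found by symbol among the 49585 genes of the deposited table, and all 10 were among the 21938 genes tested. RNA-seq gave 11 libraries in 4 groups, namely 3 of ROSI 2-cell embryos, 3 of ICSI 2-cell embryos, 2 of ROSI zygotes and 3 of ICSI zygotes. ROSI introduces an immature haploid male germ cell into the oocyte, and ICSI a sperm. ROSI embryos were activated for 1 to 2 h with 5 mM SrCl2 in CZB medium free of calcium, and culture in KSOM followed. No strontium step is given for ICSI embryos, which grew in KSOM. The paternal cell and the activation therefore differed together, and their parts in any ROSI against ICSI difference cannot be told apart. No genotype other than the strain, number of embryos per library or collection time was given in the sources used here, and nothing there says that replicates came from separate cultures, so the p-values measure the spread between these samples, which may be technical.

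Peroxiredoxins are abundant enzymes that reduce hydrogen peroxide and organic peroxides with a reactive cysteine. Most are turned over by thioredoxin, which in turn receives electrons from NADPH through thioredoxin reductase. Selenoproteins carry selenocysteine, which is inserted at a UGA codon by dedicated machinery, and several of them are redox enzymes. In the early embryo, stored oocyte transcripts are degraded while the embryo's own genome is switched on around the 2-cell stage, so a level at that stage is made of both pools.

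Levels are in TPM (transcripts per 1e6 transcripts), the authors' deposited unit, which is normalised for gene length and gives a gene's share of all transcripts in a library. In bulk libraries fewer cells of a type and less RNA per cell cannot be told apart. Differences are on the log2(TPM + 1) scale, which understates the change of genes with few transcripts, with the standard error (SE) of a limma fit to all genes. The recovered depth was 20.5 to 23.0 M reads (M, 1e6) in ROSI 2-cell libraries, 8.48 to 32.9 M in ICSI 2-cell libraries, 30.4 and 86.0 M in ROSI zygote libraries and 70.8 to 83.1 M in ICSI zygote libraries. ICSI 2-cell replicate 1, with 8.48 M reads, was the shallowest library. In zygotes, small nuclear and nucleolar RNA held a low share of the transcripts in replicate 1 of each group (0.611% for ROSI and 0.572% for ICSI), against 1.64% to 2.58% for the remaining zygote libraries, so these 2 libraries stood apart. Protein-coding genes held 44.6% to 51.4% of the transcripts in 2-cell libraries, against 65.9% to 71.6% in zygote libraries. All 10 oocyte markers were above 1 TPM in every library. The 14 cumulus cell markers had 3 or 4 members above 1 TPM in each library.

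The 250 bases before each RefSeq transcription start were searched on both strands for 4 short motifs. Of the 10 genes 9, all but Prdx6, matched RefSeq promoters by symbol, with 14 promoters among them, on build GRCm38.p6. The antioxidant response core TGACNNNGC, the motif bound by NRF2 with a small MAF partner, lay in 2 of the 14 promoters, those of Prdx1 and of 1 of the 3 Txnrd1 starts, and in 10.2% of all 32851 promoters of the same length. TATAAA lay in 3 of the 14, in Prdx1, Prdx3 and Txn1, and in 12.4% of all promoters. In Prdx1 it does not lie within the part of the window printed below, which ends before any annotated exon. The homeodomain core TAATCC lay in 0 of the 14 and in 6.25% of all, and the core of the NRF1 motif in 2 of the 14, both of Gpx4, where overlapping windows hold the same site, and in 3.74% of all. A match is a description of letters, and TPM per gene does not say which start was used. The sequences of 3 promoters follow, those of Prdx1 and Txnrd1 because they hold the antioxidant response core and that of Selenos because its stage difference was the largest of the 10, each from the plus strand, on which all 3 genes lie, 5′ to 3′, from the first base of the window up to the base before any annotated exon of the gene. Capitals mark TGACNNNGC, which in both matches reads on the minus strand. It starts 133 bases before the RefSeq start in Prdx1 and 92 bases before it in Txnrd1. Prdx1 lies at chr4:116685349-116685543, Txnrd1 at chr10:82858956-82859178 and Selenos at chr7:66079399-66079648.
Prdx1: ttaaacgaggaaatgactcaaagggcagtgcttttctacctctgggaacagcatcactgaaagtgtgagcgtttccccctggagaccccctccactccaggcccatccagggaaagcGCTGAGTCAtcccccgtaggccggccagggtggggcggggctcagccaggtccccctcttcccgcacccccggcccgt
Txnrd1: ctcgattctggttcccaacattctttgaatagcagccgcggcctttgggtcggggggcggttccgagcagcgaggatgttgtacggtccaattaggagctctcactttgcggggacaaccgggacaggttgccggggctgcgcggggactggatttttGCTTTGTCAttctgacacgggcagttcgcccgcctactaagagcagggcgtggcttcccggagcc
Selenos: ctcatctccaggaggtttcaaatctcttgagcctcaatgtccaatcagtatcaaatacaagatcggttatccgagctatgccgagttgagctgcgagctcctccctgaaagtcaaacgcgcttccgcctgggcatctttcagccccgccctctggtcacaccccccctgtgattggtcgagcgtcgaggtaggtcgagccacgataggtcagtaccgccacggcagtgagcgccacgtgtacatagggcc
The Selenos window holds none of the 4 motifs. Of the other genes that were lower in 2-cell embryos than in zygotes, Prdx2, Prdx3 and Txn1 have no match to the antioxidant response core in these windows.

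The largest differences of these genes lay between the stages. Prdx1, Prdx2, Prdx3, Txn1 and Txnrd1 were lower in 2-cell embryos than in zygotes, and Prdx4, Prdx5, Prdx6, Gpx4 and Selenos were higher, after ROSI and after ICSI. The libraries of the stages did not overlap for any of the 10 genes. The one direction that depended on the scaling was that of Prdx2 after ICSI, with a difference of −0.48, and of 0.06 when TPM were rescaled to protein-coding genes alone. A gene was called at an adjusted p under 0.05, Benjamini-Hochberg over all tested genes. After ROSI 5 of the 10 were called higher and 5 lower in 2-cell embryos, beside 35.6% of all tested genes called higher and 32.3% lower. After ICSI 4 were called higher and 5 lower, beside 33.0% higher and 35.0% lower, and Prdx5 was the exception. That exception depended on the scaling, since Prdx5 was called after ICSI with median-ratio scaling (0.30) and with protein-coding rescaling (0.70). With protein-coding rescaling Prdx2 was not called after ICSI, and Prdx3 was not called after ROSI. The genes were chosen on this contrast among others, so nothing is read from these counts. The median difference of the 10 genes was 0.09 after ROSI and −0.14 after ICSI, beside 0.19 and 0 over all tested genes.

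**Figure D1:**
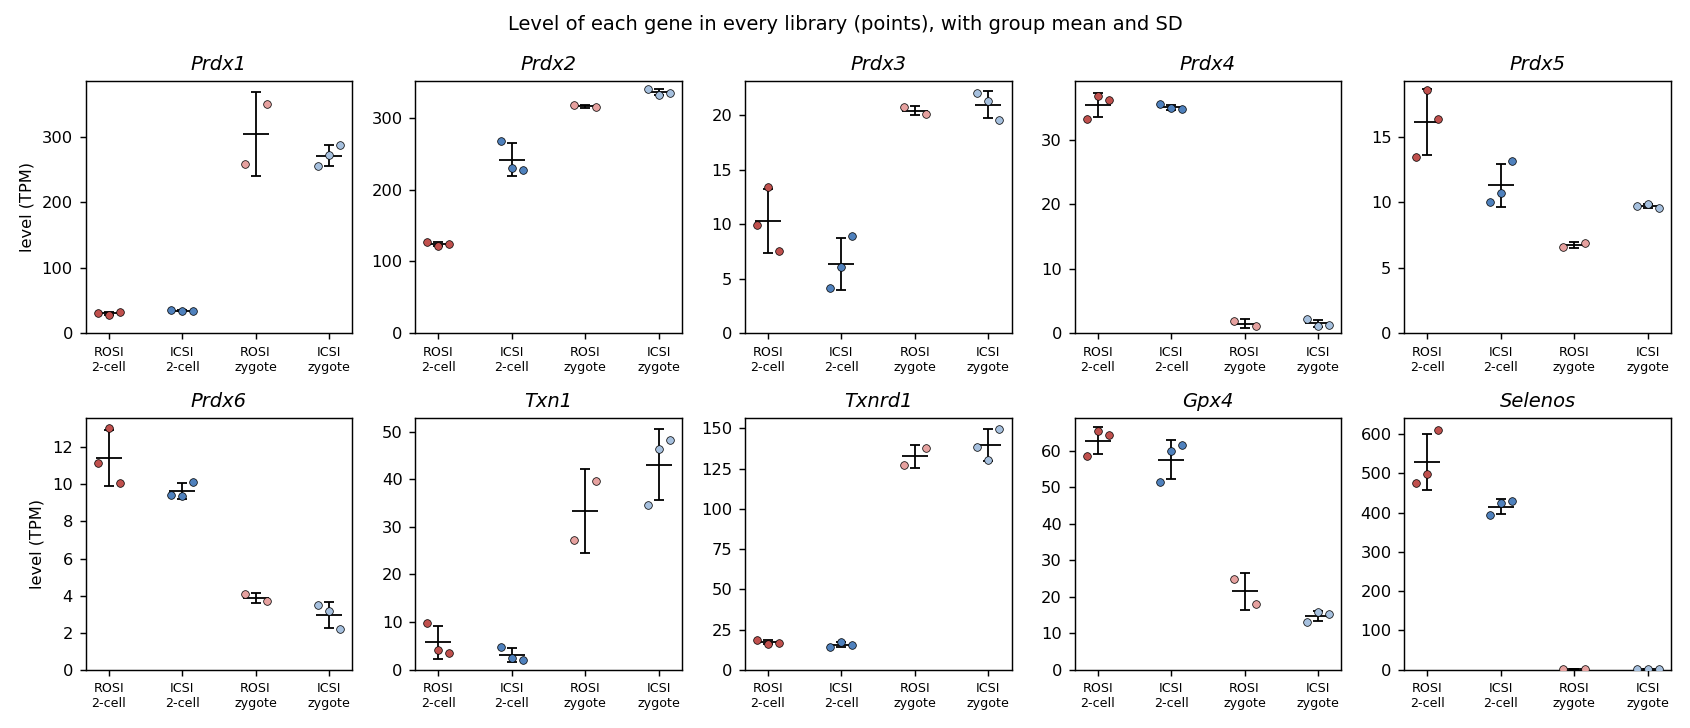
Level in TPM (vertical axis, linear, from 0) of each of the 10 genes in the 3 ROSI 2-cell, 3 ICSI 2-cell, 2 ROSI zygote and 3 ICSI zygote libraries. Points are libraries, and bars are the group mean and SD. Selenos stands at 393 to 611 TPM in 2-cell embryos and at 0.764 to 2.61 TPM in zygotes, and Prdx1 shows the reverse.

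Prdx1 (mm10 chr4:116685544-116700822, plus strand) encodes an abundant peroxiredoxin of the cytosol and nucleus. In 2-cell embryos its level was 30.0, 27.3 and 32.9 TPM after ROSI and 35.4, 33.7 and 33.1 TPM after ICSI. Zygotes held 259 and 349 TPM after ROSI and 255, 271 and 287 TPM after ICSI. The stages were far apart, the ROSI 2-cell libraries all lay just below the ICSI ones, and the zygote groups overlapped. The 2-cell mean was 10.1-fold below the zygote mean after ROSI (log2 difference −3.28, SE 0.13) and 7.95-fold below it after ICSI (−2.95, SE 0.12). Between ROSI and ICSI the difference was −0.18 (SE 0.12) in 2-cell embryos and 0.15 (SE 0.13) in zygotes, within 2 SE in each. It was 0.02 between the 2 zygote libraries that stood apart and 0.32 between the others. The zygote value turned on 1 library, since ROSI replicate 2 alone was above the ICSI libraries, and it ranged from −0.06 to 0.37 over 13 alternatives.

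Prdx2 (chr8:84969587-84974834, plus strand) encodes a closely related cytosolic peroxiredoxin, known for its abundance in red blood cells. Its level was 128, 122 and 124 TPM in ROSI 2-cell embryos and 268, 230 and 227 TPM in ICSI 2-cell embryos. Its zygote level was 318 and 315 TPM after ROSI and 341, 333 and 335 TPM after ICSI. Each ROSI 2-cell library was thus near the level of the others of its group and far below every ICSI 2-cell library, while the zygote groups lay close together without overlap. The 2-cell mean was 125 ± 2.85 TPM after ROSI and 242 ± 22.9 TPM after ICSI (SD, n = 3 each), a log2 difference of −0.95 (SE 0.08). The zygote difference was −0.09 (SE 0.09) and ranged from −0.10 to 0.01 over 13 alternatives. Relative to zygotes, the 2-cell mean was 2.54-fold lower after ROSI (−1.34, SE 0.09) and 1.39-fold lower after ICSI (−0.48, SE 0.08, but 0.06 with protein-coding rescaling). The stage difference after ROSI minus that after ICSI was −0.86 (SE 0.12).

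The 2-cell difference of Prdx2 ranged from −1.02 to −0.87 over 14 alternatives. Between ROSI and ICSI 2-cell embryos the 10 genes gave 0 calls higher and 1 lower, that of Prdx2, beside 4.93% of all tested genes called higher and 4.58% lower, and their median difference was 0.18 beside 0.04 over all tested genes. Groups did not overlap for 4 of the 10, with Prdx5 and Selenos higher and Prdx1 and Prdx2 lower after ROSI, beside 27.3% of all tested genes without overlap in either direction. In zygotes none of the 10 was called, beside 0.114% called higher and 0.0319% lower, and limma gave 1392 genes of all tested at an unadjusted p under 0.05 and 32 called. Groups did not overlap for 5 of the 10 in zygotes, with Prdx6, Gpx4 and Selenos higher and Prdx2 and Prdx5 lower after ROSI, beside 26.4% of all tested genes. For the difference between the stage differences 0 of the 10 were called, beside 0.0137% called higher and 0.00456% lower, and 3303 of all tested genes had an unadjusted p under 0.05. In 2-cell embryos the 1082 genes called higher and 1005 called lower became 1197 and 2023 with median-ratio scaling, and 2225 and 1339 with protein-coding rescaling. As the genes were picked from these values, these counts describe them and no more.

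The summed oocyte markers were 912 to 1113 TPM in ROSI 2-cell libraries and 1479 to 1484 TPM in ICSI 2-cell libraries, so transcripts known from the oocyte were also lower there after ROSI. They were lower after ROSI in zygotes as well, at 5306 and 6046 TPM against 6534 to 7636 TPM after ICSI, where Prdx2 differed by −0.09. Their part in the 2-cell difference of Prdx2 was not tested. The 11 genes listed as typical of the 2-cell stage summed to 436 to 567 TPM in ROSI 2-cell libraries, against 787 to 837 TPM in ICSI 2-cell libraries, which was not tested against Prdx2 either. The annotated span of Prdx2 overlaps those of Rnaseh2a and Junb on the opposite strand. Rnaseh2a was at 8.68 to 8.80 TPM in ROSI 2-cell embryos and 6.10 to 7.91 TPM in ICSI 2-cell embryos, and Junb was below 2 TPM in every library. The libraries were made with a stranded kit, but the strand setting of the counting is not given in the sources used here.

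**Figure D2:**
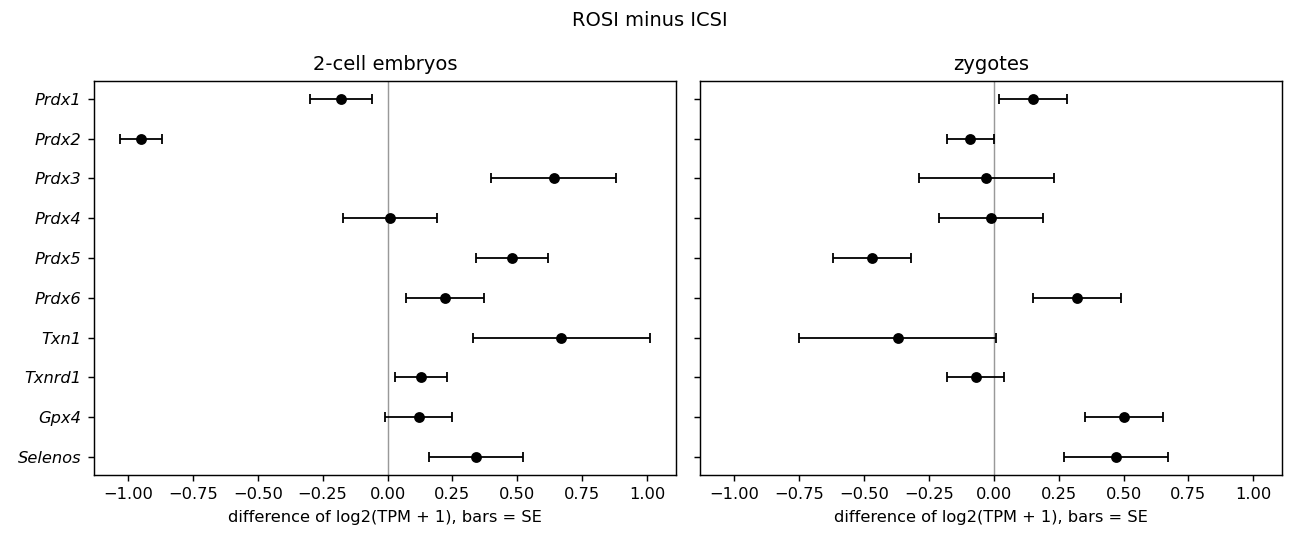
ROSI minus ICSI difference of log2(TPM + 1) for each of the 10 genes (horizontal axis), in 2-cell embryos (left) and zygotes (right). Points are the estimates and bars their SE. Prdx2 stands at −0.95 in 2-cell embryos and at −0.09 in zygotes, and Prdx5 lies at 0.48 in 2-cell embryos and −0.47 in zygotes.

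Prdx3 (chr19:60864051-60874556, minus strand) encodes the peroxiredoxin of the mitochondrial matrix. In 2-cell embryos its level was 9.92, 13.4 and 7.56 TPM after ROSI and 4.11, 6.09 and 8.86 TPM after ICSI. Zygotes held 20.7 and 20.1 TPM after ROSI and 22.02, 21.3 and 19.6 TPM after ICSI. Both zygote groups were tight and overlapped, and the 2-cell groups were wide and overlapped. The 2-cell mean was 1.99-fold lower than in zygotes after ROSI (−0.96, SE 0.26) and 3.30-fold lower after ICSI (−1.63, SE 0.24). After ROSI this difference was −0.53 with protein-coding rescaling and was then not called. Between ROSI and ICSI 2-cell embryos the difference was 0.64 (SE 0.24), and it ranged from 0.40 to 0.87 over 14 alternatives. The value of 0.40 was without ICSI 2-cell replicate 1, which held 23 reads of Prdx3.

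Prdx4 (chrX:155323918-155340754, minus strand) encodes the peroxiredoxin of the endoplasmic reticulum (ER), where it uses hydrogen peroxide to help form disulfide bonds. Its level in 2-cell embryos was 33.3, 36.8 and 36.3 TPM after ROSI and 35.6, 34.9 and 34.9 TPM after ICSI. It was 1.94 and 1.02 TPM in ROSI zygotes and 2.13, 1.04 and 1.31 TPM in ICSI zygotes. The ROSI and ICSI libraries overlapped at both stages and the stages were far apart. The 2-cell mean was 24.0-fold above the zygote mean after ROSI (3.90, SE 0.20) and 23.5-fold after ICSI (3.88, SE 0.18). With 1 library left out the fold ranged from 18.3 to 34.8 after ROSI and from 20.4 to 29.9 after ICSI. Zygote libraries held only 41 to 116 reads of Prdx4. The ROSI minus ICSI difference was 0.01 (SE 0.18) in 2-cell embryos.

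Prdx5 (chr19:6906697-6910106, minus strand) encodes a peroxiredoxin found in mitochondria, peroxisomes and cytosol. Its level was 13.5, 18.6 and 16.3 TPM in ROSI 2-cell embryos and 9.999, 10.7 and 13.1 TPM in ICSI 2-cell embryos. Among zygotes it was 6.56 and 6.89 TPM after ROSI and 9.69, 9.90 and 9.58 TPM after ICSI. Prdx5 was therefore higher after ROSI in 2-cell embryos and lower after ROSI in zygotes, without overlap at either stage. The differences were 0.48 (SE 0.14) in 2-cell embryos and −0.47 (SE 0.15) in zygotes. Between the zygote libraries with little small nuclear RNA it was −0.50, and −0.44 between the others. Over the alternatives they ranged from 0.37 to 0.59 in 2-cell embryos and from −0.53 to −0.33 in zygotes. Between stages the 2-cell mean was 2.40-fold higher after ROSI (1.14, SE 0.15) and 1.16-fold higher after ICSI (0.19, SE 0.14). The stage difference after ICSI ranged from 0.08 to 0.70 over 14 alternatives. Trmt112, a methyltransferase cofactor that overlaps Prdx5 on the opposite strand, was at 58.0 to 60.4 TPM in ROSI 2-cell embryos, 39.4 to 65.5 TPM in ICSI 2-cell embryos, 106 and 135 TPM in ROSI zygotes and 99.9 to 137 TPM in ICSI zygotes. Without the strand setting, reads of the shared bases cannot be told apart.

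Prdx6 (chr1:161240112-161251219, minus strand) encodes a peroxiredoxin that uses glutathione and also acts on phospholipids. In 2-cell embryos its level was 11.2, 13.1 and 10.1 TPM after ROSI and 9.45, 9.37 and 10.1 TPM after ICSI. In zygotes it was 4.06 and 3.69 TPM after ROSI and 3.52, 3.15 and 2.20 TPM after ICSI. The zygote groups did not overlap, by a narrow margin, and the 2-cell groups did. The zygote difference was 0.16 between the libraries with little small nuclear RNA and 0.36 between the others. Stage differences were 2.95-fold after ROSI (1.35, SE 0.17) and 3.27-fold after ICSI (1.44, SE 0.15). A near-identical retrogene, Prdx6b, was at 3.69 and 1.01 TPM in ROSI zygotes and at 0, 0.111 and 0.0156 TPM in ICSI zygotes. The processed pseudogene Prdx6-ps2 was at 1.29 and 1.57 TPM in ROSI zygotes and 2.34, 1.78 and 2.08 TPM in ICSI zygotes, the other direction. Reads of Prdx6 can be split with either copy, and their part in its zygote difference was not tested. Prdx6b and Prdx6-ps2 were named after their values were seen.

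**Figure D3:**
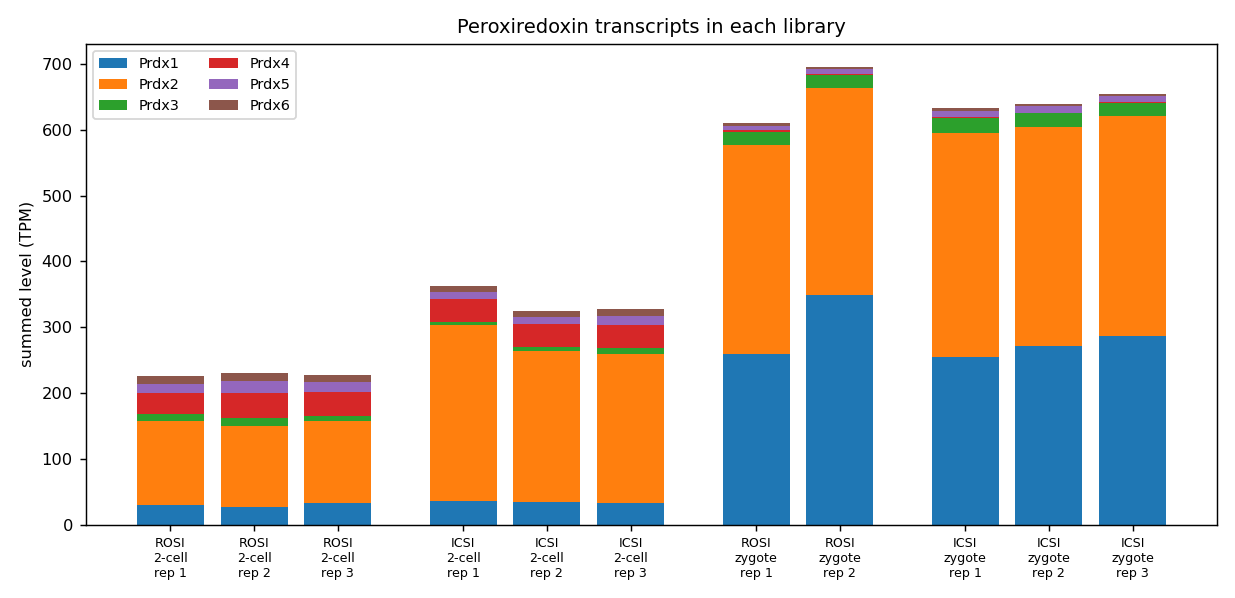
Summed level in TPM (vertical axis, from 0) of the 6 peroxiredoxins in each library, stacked by gene. The ROSI 2-cell bars stand at 225 to 231 TPM, the ICSI 2-cell bars at 325 to 363 TPM and the zygote bars at 610 to 696 TPM, and Prdx1 and Prdx2 fill most of every bar.

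Per length, the 6 peroxiredoxins summed to 228 ± 2.82 TPM in ROSI 2-cell embryos and 338 ± 21.2 TPM in ICSI 2-cell embryos (SD, n = 3 each). In zygotes they summed to 653 ± 60.8 TPM after ROSI (SD, n = 2) and 642 ± 10.9 TPM after ICSI (SD, n = 3). Prdx1 and Prdx2 together made up 67.9% of that sum in ROSI 2-cell embryos, 81.5% in ICSI 2-cell embryos, 95.0% in ROSI zygotes and 94.5% in ICSI zygotes. The level of Prdx1 relative to Prdx2 was 0.241 in ROSI 2-cell embryos, 0.141 in ICSI 2-cell embryos, 0.961 in ROSI zygotes and 0.806 in ICSI zygotes. The pair was thus near balance in zygotes and led by Prdx2 in 2-cell embryos. In zygotes the order of levels after both injections began with Prdx2, Prdx1, Txnrd1 and Txn1, where Prdx2 and Prdx1 overlapped after ROSI and did not after ICSI. In 2-cell embryos it began with Selenos, Prdx2, Gpx4, Prdx4 and Prdx1, where Prdx4 and Prdx1 overlapped after ICSI and did not after ROSI. Txn1 was the lowest of the 10 in 2-cell embryos, where its libraries overlapped those of Prdx3, and Prdx4 was the lowest in zygotes, where it overlapped Selenos after ICSI.

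Txn1 (chr4:57943373-57956411, minus strand) encodes the cytosolic thioredoxin that reduces peroxiredoxins. Its level was 9.80, 4.06 and 3.58 TPM in ROSI 2-cell embryos and 4.77, 2.46 and 2.09 TPM in ICSI 2-cell embryos. Zygotes held 27.2 and 39.6 TPM after ROSI and 34.6, 46.3 and 48.3 TPM after ICSI. Groups of the same stage overlapped, and replicate 1 was high for its group in ROSI and in ICSI 2-cell embryos. Relative to zygotes the 2-cell mean was 5.75-fold lower after ROSI (−2.43, SE 0.38) and 13.9-fold lower after ICSI (−3.46, SE 0.34). Without ROSI 2-cell replicate 1 it was 8.75-fold lower after ROSI (−2.81), and without ICSI 2-cell replicate 1 it was 18.9-fold lower after ICSI. The library with the fewest reads of Txn1, ICSI 2-cell replicate 1, held 19, so the 2-cell values carry a large counting error.

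Txnrd1 (chr10:82833951-82897712, plus strand) encodes the cytosolic selenoenzyme that reduces thioredoxin. In 2-cell embryos its level was 18.5, 15.9 and 16.7 TPM after ROSI and 14.1, 17.2 and 15.3 TPM after ICSI. Its zygote level was 127 and 138 TPM after ROSI and 139, 130.3 and 149.8 TPM after ICSI. ROSI and ICSI overlapped at both stages, and the stages were well apart. The 2-cell mean was 7.77-fold lower after ROSI (−2.89, SE 0.11) and 8.98-fold lower after ICSI (−3.09, SE 0.10). A reductase, its thioredoxin and a peroxidase they serve, Txnrd1, Txn1 and Prdx1, were thus all lower in 2-cell embryos than in zygotes. Of the other peroxiredoxins, Prdx2 and Prdx3 were lower too, for Prdx2 after ICSI depending on the scaling. Prdx4, Prdx5 and Prdx6 were higher. The short gene Eid3 lies inside Txnrd1 on the same strand, at 2.51 to 4.05 TPM in ROSI 2-cell embryos, 1.23 to 3.84 TPM in ICSI 2-cell embryos, 4.92 and 8.47 TPM in ROSI zygotes and 0.534 to 0.764 TPM in ICSI zygotes.

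Gpx4 (chr10:80047166-80056439, plus strand) encodes the selenoenzyme that reduces lipid peroxides in membranes and holds back ferroptosis. Its level was 58.6, 65.4 and 64.3 TPM in ROSI 2-cell embryos and 51.5, 59.9 and 61.6 TPM in ICSI 2-cell embryos. Among zygotes it was 25.0 and 17.9 TPM after ROSI and 13.1, 15.7 and 15.3 TPM after ICSI. The 2-cell groups overlapped and the zygote groups did not, with both ROSI zygote libraries above the ICSI ones. The zygote difference was 0.50 (SE 0.15). It was 0.88 between the zygote libraries with little small nuclear RNA, 1 of each group, and 0.20 between the others, 1 after ROSI and 2 after ICSI. Between stages the 2-cell mean was 2.92-fold higher after ROSI (1.52, SE 0.15) and 3.92-fold higher after ICSI (1.90, SE 0.13).

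Gpx4 is also abundant in late male germ cells, where it serves the sperm midpiece, and its isoforms cannot be separated in values per gene. The 16 spermatid markers summed to 194 TPM in ROSI zygote replicate 1 and 97.7 TPM in replicate 2, with 16 and 13 of them above 1 TPM, against 27.7 to 34.7 TPM in ICSI zygotes, with 4 or 5 above 1 TPM and Smcp at 0 in each. In 2-cell embryos they summed to 46.9 to 64.0 TPM after ROSI, with 10 or 11 above 1 TPM, and to 11.9 to 18.6 TPM after ICSI, with 1 to 4 above 1 TPM and Smcp at 0 in each. The markers' part in the zygote differences of Gpx4, Prdx6 and Selenos was not tested.

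Selenos (chr7:66079649-66089405, plus strand) encodes a selenoprotein of the ER membrane that takes part in the removal of misfolded proteins. Its level was 476, 499 and 611 TPM in ROSI 2-cell embryos and 393, 424 and 429 TPM in ICSI 2-cell embryos. In zygotes it was 2.16 and 2.61 TPM after ROSI and 1.78, 1.97 and 0.764 TPM after ICSI. Every ROSI library lay above every ICSI library of its stage, and the zygote libraries held only 25 to 113 reads of it. The 2-cell mean was 222-fold above the zygote mean after ROSI (7.29, SE 0.20) and 276-fold above it after ICSI (7.41, SE 0.18). These differences ranked 14 and 12 from the highest among the 21938 genes tested. The ROSI minus ICSI difference was 0.34 (SE 0.18) in 2-cell embryos and 0.47 (SE 0.20) in zygotes. Within zygotes it was 0.18 between the libraries with little small nuclear RNA and 0.66 between the others.

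**Figure D4:**
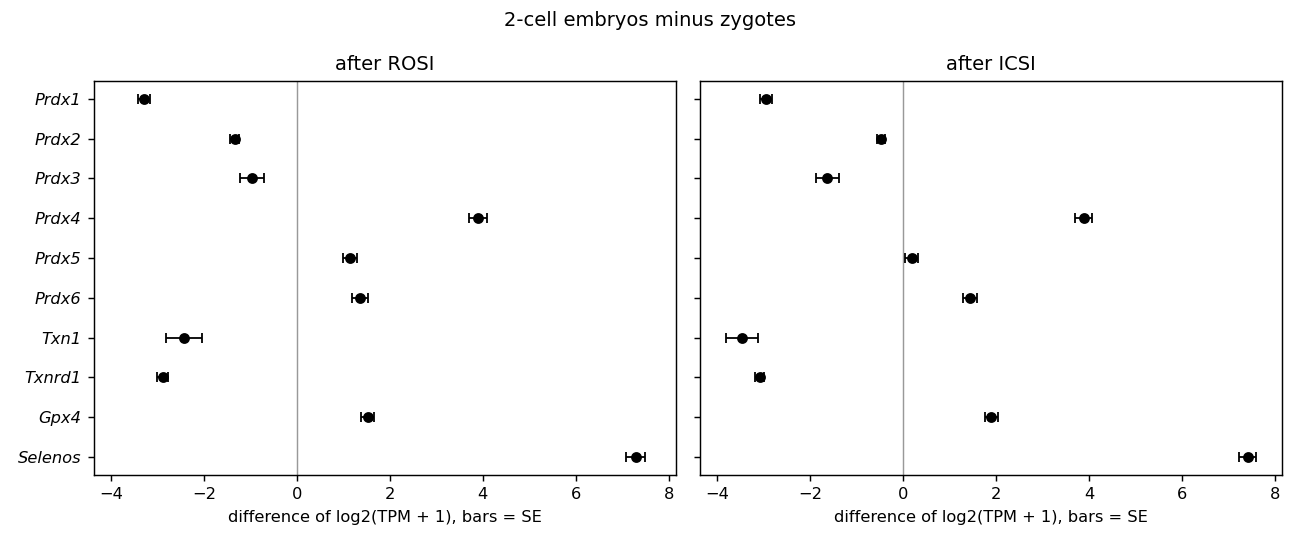
Difference of log2(TPM + 1) between 2-cell embryos and zygotes (horizontal axis) for each of the 10 genes, after ROSI (left) and after ICSI (right). Points are the estimates and bars their SE. Selenos stands at 7.29 and 7.41, and Prdx1, Txn1 and Txnrd1 lie between −3.46 and −2.43, while Prdx2 after ICSI stands at −0.48, and at 0.06 with protein-coding rescaling.

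The 10 genes summed to 842 TPM in ROSI 2-cell embryos, 830 TPM in ICSI 2-cell embryos, 843 TPM in ROSI zygotes and 841 TPM in ICSI zygotes. These are shares of all transcripts and were not recomputed for protein-coding genes alone. Protein-coding genes held 44.6% to 51.4% of the transcripts in 2-cell libraries and 65.9% to 71.6% in zygote libraries. Selenos was the largest part of the sum in 2-cell embryos, and Prdx1 and Prdx2 together made most of it in zygotes. The 3 selenoproteins alone summed to 609 TPM in ROSI 2-cell embryos, 489 TPM in ICSI 2-cell embryos, 156 TPM in ROSI zygotes and 156 TPM in ICSI zygotes. Within them Txnrd1 and Selenos changed places, since Txnrd1 led in zygotes and Selenos in 2-cell embryos.

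For each gene the 3 most similar patterns were sought among 8881 genes that were tested, averaged at least 5 TPM and carried a name, by the root mean square (RMS) difference of centred log2(TPM + 1) over the 11 libraries. Prdx1 was closest to Ccno (RMS 0.0852), Ctnna3 and Rwdd2b. Txnrd1 was closest to Dlgap5 (RMS 0.0872), Zfp952 and Prepl, and Prdx2 to Tcl1b3 (RMS 0.112), Lsp1 and Stra13. Selenos was closest to Obox6 (RMS 0.324), a homeobox gene, Calcoco2 and Slc34a2, and Txn1 to Cox7a2l (RMS 0.340), Ciao1 and Tm2d1, so these genes had looser neighbours. For Prdx4 the closest was Slc25a25 (RMS 0.127), for Prdx5 Cmtm6 (RMS 0.114), for Prdx6 Necap1 (RMS 0.143), for Prdx3 Ino80b (RMS 0.144) and for Gpx4 Ccpg1os (RMS 0.143). The 11 libraries share their depth and stage structure, so these likenesses are a description.

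Other genes of the redox pathways were counted from 8 lists of 141 genes, of which 138 were in the table and 126 were tested. In ROSI 2-cell embryos 5 of the 126 (3.97%) were called higher and 6 (4.76%) lower than in ICSI 2-cell embryos, beside 4.93% and 4.58% of all tested genes, with a median difference of 0.07 beside 0.04. These shares are near those of all tested genes, so nothing is read from them about the redox genes as a group. The NADPH supply list held 5 of these 11, the most of any list. Of its 14 tested genes 3 (21.4%) were called higher and 2 (14.3%) lower, and the list was not tested as a group. Idh2, a mitochondrial NADPH-producing dehydrogenase, was at 11.9, 15.6 and 14.4 TPM in ROSI 2-cell embryos and 2.96, 4.96 and 4.13 TPM in ICSI 2-cell embryos, a difference of 1.59 (SE 0.19, limma adjusted p = 0.00323). Tkt, transketolase of the pentose phosphate pathway, differed by 1.08 (SE 0.17, limma adjusted p = 0.00681), and Mthfd1, a cytosolic folate enzyme, by 0.82 (SE 0.14, limma adjusted p = 0.00788), both higher after ROSI. G6pdx, which makes NADPH in the first step of that pathway, was at 86.9, 66.8 and 96.7 TPM in ROSI 2-cell embryos and 167, 172 and 158 TPM in ICSI 2-cell embryos, a difference of −0.99 (SE 0.14, limma adjusted p = 0.00489). Mthfd2, the mitochondrial folate enzyme, was also lower after ROSI (log2 difference −0.61, SE 0.11, limma adjusted p = 0.0114), and its values were seen before it was named. Within NADPH supply, 3 genes were therefore higher and 2 lower.

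**Figure D5:**
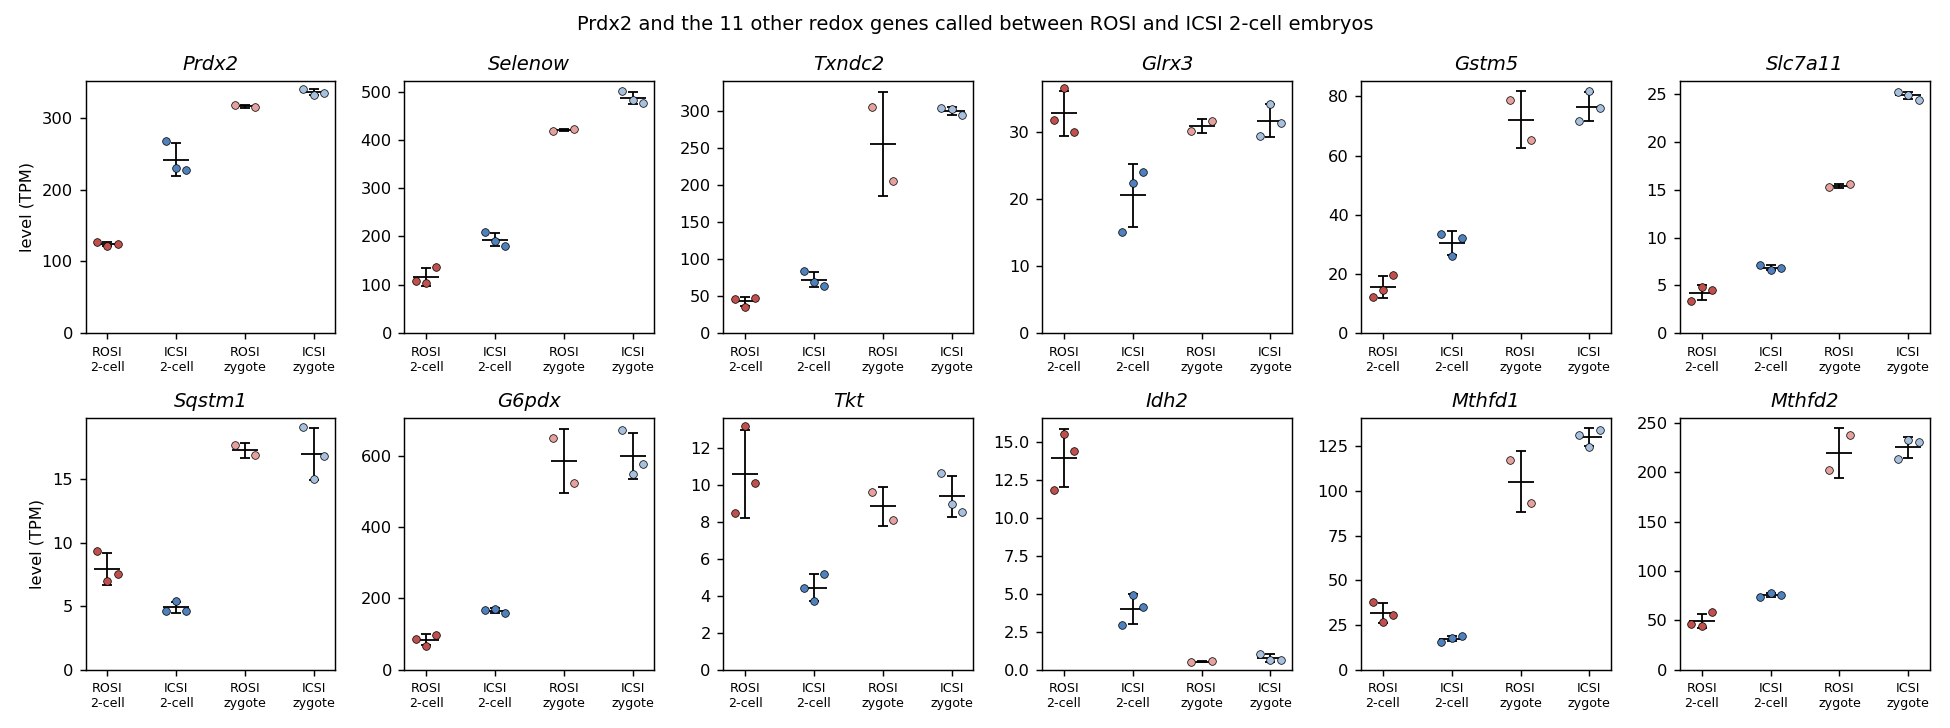
Level in TPM (vertical axis, linear, from 0) of Prdx2 and of the 11 other redox genes called between ROSI and ICSI 2-cell embryos, in every library of the 4 groups. Points are libraries and bars the mean and SD. G6pdx stands at 66.8 to 96.7 TPM in ROSI 2-cell embryos and 158 to 172 TPM in ICSI 2-cell embryos.

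Selenow, a small selenoprotein, was at 108, 103 and 136 TPM in ROSI 2-cell embryos and 208, 191 and 181 TPM in ICSI 2-cell embryos (−0.74, SE 0.11, limma adjusted p = 0.00502), the 1 call among 19 tested other selenoproteins. In the thioredoxin and glutaredoxin list, 19 tested, Glrx3, which carries iron-sulfur clusters, was higher (0.67, SE 0.16, limma adjusted p = 0.0268) and Txndc2, the sperm thioredoxin, lower (−0.74, SE 0.16, limma adjusted p = 0.0212). In the glutathione list, 22 tested, Gstm5 (−0.95, SE 0.16, limma adjusted p = 0.00943) and the cystine carrier Slc7a11 (−0.60, SE 0.12, limma adjusted p = 0.0163) were lower. In the NRF2 list, 10 tested, the adaptor Sqstm1 was higher (0.59, SE 0.13, limma adjusted p = 0.0239). The peroxide and superoxide list (17 tested), the selenocysteine machinery (12 tested) and the ER folding and degradation list (19 tested) had no call. With no filter on low values the limma adjusted p was 0.0514 for Glrx3. Without ROSI 2-cell replicate 1 it was 0.0538 for Glrx3 and 0.0572 for Sqstm1. It was 0.0905 for Glrx3 and 0.0707 for Txndc2 without ROSI 2-cell replicate 2, and 0.0648 for Sqstm1 and 0.0675 for Txndc2 without ICSI 2-cell replicate 1. Without ICSI 2-cell replicate 2 it was 0.0517 for Txndc2, and without replicate 3 it was 0.0577 for Sqstm1. With the 6 2-cell libraries fitted alone, 0 of the 11 were called, with limma adjusted p from 0.0512 to 0.130.

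In zygotes 0 of the 126 other redox genes were called between ROSI and ICSI by limma. It gave an unadjusted p under 0.05 for 15 of them, beside 1392 of all 21938 tested genes. For the difference between stage differences limma called 0 of the 126, with 23 at an unadjusted p under 0.05, beside 3303 of all 21938. Selenov was called with a pseudocount of 0.1 and with protein-coding rescaling, and Prdx6b with that rescaling and without ROSI zygote replicate 2, where its limma adjusted p was 0.0167. Both were named after their values were seen. Between stages, 41 of the 126 (32.5%) were called higher and 63 (50%) lower in 2-cell embryos after ROSI, beside 35.6% and 32.3% of all tested genes, with a median of −0.43 beside 0.19. After ICSI 38 (30.2%) were called higher and 69 (54.8%) lower, beside 33.0% and 35.0%, with a median of −0.50 beside 0. With protein-coding rescaling 56 were called higher and 53 lower after ROSI, beside 6817 and 4803 of the 15295 genes then tested. After ICSI it gave 51 and 57, beside 6489 and 4943, so the balance of the redox counts depended on the scaling. The counts of the lists that follow are without that rescaling. They are set against the all-gene shares given first and were not tested as groups.

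The thioredoxin and glutaredoxin list held 3 higher and 15 lower of 19 tested genes after ROSI, 15.8% and 78.9%, and the same numbers after ICSI, with a median of −1.90 after ROSI and −2.01 after ICSI. Glrx, the cytosolic glutaredoxin, fell to 7.54 TPM in ROSI 2-cell embryos, against 230.1 TPM in ROSI zygotes (−4.78, SE 0.19, limma adjusted p = 5.67e-09). Txnrd3, the testis-enriched selenoprotein relative of Txnrd1, fell to 5.77 TPM in ROSI 2-cell embryos, against 98.6 TPM in ROSI zygotes (−3.90, SE 0.19, limma adjusted p = 2.23e-08). Txnrd2, the mitochondrial reductase, stood at 5.65 to 6.76 TPM in ROSI 2-cell embryos and 0.271 TPM in both ROSI zygote libraries, opposite to Txnrd1, and was named after its values were seen.

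The peroxide and superoxide list held 9 higher and 5 lower of 17 after ROSI, and 8 and 5 after ICSI. Sesn2, a stress-induced sestrin, rose to 188 TPM in ROSI 2-cell embryos, against 2.20 TPM in ROSI zygotes (5.88, SE 0.18, limma adjusted p = 1.49e-09), and Gpx1, a soluble glutathione peroxidase, rose to 92.6 TPM, against 9.97 TPM (3.11, SE 0.17, limma adjusted p = 5.71e-08). Sod1, the cytosolic superoxide dismutase, fell to 176 TPM in ROSI 2-cell embryos, against 1057 TPM in ROSI zygotes (−2.58, SE 0.14, limma adjusted p = 5.72e-08). The glutathione list held 6 higher and 12 lower of 22 after ROSI, and 5 and 14 after ICSI, led by Gsta4 (−3.92, SE 0.19 after ROSI) and Mgst3 (−3.80, SE 0.25 after ROSI). The other selenoproteins held 9 higher and 4 lower of 19 after ROSI, and 9 and 5 after ICSI.

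The selenocysteine machinery held 3 higher and 7 lower of 12 after ROSI, and 4 and 7 after ICSI. Eefsec, the elongation factor that delivers the selenocysteine tRNA, fell to 9.61 TPM in ROSI 2-cell embryos, against 45.1 TPM in ROSI zygotes (−2.13, SE 0.20, limma adjusted p = 3.02e-06), and Sepsecs, which makes selenocysteine on its tRNA, fell to 2.16 TPM, against 14.7 TPM (−2.30, SE 0.14, limma adjusted p = 1.32e-07). Their direction was that of Txnrd1 and opposite to Selenos and Gpx4. The NRF2 list held 4 higher and 4 lower of 10 after ROSI, and 4 and 5 after ICSI. In it Cul3, the ubiquitin ligase scaffold that acts with KEAP1, rose (3.35, SE 0.17 after ROSI), as did the small MAF gene Mafk (2.82, SE 0.19 after ROSI). Nfe2l2, which encodes NRF2 and was named after its values were seen, was at 12.0 TPM in ROSI 2-cell embryos, 10.99 TPM in ICSI 2-cell embryos, 14.9 TPM in ROSI zygotes and 15.7 TPM in ICSI zygotes. The NADPH supply list held 5 higher and 8 lower of 14 after ROSI, and 5 and 9 after ICSI, with Idh1 (−3.19, SE 0.24 after ROSI) the largest fall of its named genes. The ER list held 6 higher and 9 lower of 19 after ROSI, and 5 and 10 after ICSI. In it P4hb, a protein disulfide isomerase, rose (2.78, SE 0.18 after ROSI), and Pdia6, another, fell (−1.75, SE 0.22 after ROSI).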

How the data were processed

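RNA-seq values of 11 mouse embryo libraries were used as the authors' deposited TPM, 1 column per library. Per the submitters' processing notes, fastp, Bowtie2, STAR 2.7.4a and featureCounts were used with mm10. Their roles, the annotation and the strand setting are not given in the sources used here. Per the labels' protocols, libraries were prepared with a stranded SMART-seq kit and 1 ng of total RNA.

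The 10 genes and the pathway lists were chosen with earlier results of these data known. Reads were recovered from TPM and GENCODE M21 exon lengths, with 87.9% to 90.7% of the values within 0.01 of a whole number, where 2% would be by chance. Genes reaching 1 TPM in 2 or more libraries entered the test on log2(TPM + 1), a pseudocount of 1, with limma 3.58.1 in R 4.3.3 (4 group means over all 11 libraries, variance trend, Benjamini-Hochberg, threshold 0.05, two-sided), and the procedure was tested on simulated data. Python 3.11.15 with pandas 2.3.3 was used for the rest.

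Named genes of each list were up to 3 called between ROSI and ICSI with non-overlapping libraries and at least 5 TPM, up to 2 called in the same direction after both injections, and the most abundant. Promoter sequences were from RefSeq, and a match of symbols was used. Alternatives were pseudocounts of 0.1 and 5, no filter or 5 TPM in place of 1, scaling by median ratios, the replicate number as a block, the 2 groups alone, each library left out, and, chosen after seeing the data, protein-coding rescaling and zygote libraries split by small nuclear RNA.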

Additional observations from a re-analysis of the deposited data

Results flagged for a closer look

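For Prdx5, Idh2 and Mthfd1 every ROSI library lay above every ICSI library in 2-cell embryos and below every ICSI library in zygotes, in separate libraries for each stage. In either direction, groups did not overlap for 27.3% of all tested genes in 2-cell embryos and 26.4% in zygotes. The share of all genes that reversed in this way was not counted, so nothing is read from these reversals. For Prdx5 the 2-cell difference minus the zygote difference was 0.95 on the log2 scale. It did not pass the threshold, except with protein-coding rescaling. As the gene was chosen from these values, the difference is given as a description. For Idh2 it was 1.79 (SE 0.28, limma adjusted p = 0.0640) and for Mthfd1 1.13 (SE 0.20, limma adjusted p = 0.0735), so neither passed the threshold. Idh2 stood at 0.50 and 0.58 TPM in ROSI zygotes and 0.628 to 1.06 TPM in ICSI zygotes, so its zygote difference rests on few transcripts.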

How the results depend on the processing

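Of the differences of the 10 genes, 1 changed sign where the gene was called, that of Prdx2 between stages after ICSI (0.06 with protein-coding rescaling), for which the median of all genes moved to 0.20 after ICSI and 0.32 after ROSI. Below, counts are given for ROSI against ICSI zygotes, ROSI against ICSI 2-cell embryos and the difference between stage differences. All genes called between zygotes (32) became 64 and 9 with pseudocounts of 0.1 and 5, 87 with no filter, 52 with median-ratio scaling, 4 with the replicate block, 0 with the 2 groups alone and 130 with protein-coding rescaling. Between 2-cell embryos (2087) they became 1366 with no filter, 3220 with median-ratio scaling, 85 with the groups alone and 3564 with protein-coding rescaling. For the difference of stage differences (4) they became 94 with a pseudocount of 5, 13 with no filter, 71 with the filter of 5 TPM, 244 with median-ratio scaling, 0 with the replicate block and 627 with protein-coding rescaling. Other redox genes between zygotes (0) became 1 with a pseudocount of 0.1 and 2 with protein-coding rescaling. Between 2-cell embryos (11) they became 17 with a pseudocount of 5, 20 with the filter of 5 TPM, 27 with median-ratio scaling, 0 with the groups alone and 33 with protein-coding rescaling. For the difference of stage differences (0) they became 1 with a pseudocount of 5, 2 with the filter of 5 TPM, 2 with median-ratio scaling and 11 with protein-coding rescaling. Of the 10 genes, those called between 2-cell embryos (1) became 2 with a pseudocount of 5, the filter of 5 TPM or median-ratio scaling. They became 3 with protein-coding rescaling. Prdx5 was added to Prdx2 under each of these settings, and of them only the rescaling added Prdx3. For the difference of stage differences (0) they became 1, Prdx2, under the first 3 of these settings. They became 2, Prdx2 and Prdx5, with protein-coding rescaling. Replicate numbers do not pair the samples by any label, and same-numbered deviations correlated at 0.330 and 0.215 in zygotes, with 2 pairs, and at −0.0291 to 0.0574 elsewhere. With 1 library left out, all genes called ranged from 4 to 84 between zygotes, 918 to 2157 between 2-cell embryos, 13797 to 14634 between stages after ICSI, 13165 to 14815 after ROSI, and 0 to 37 for the difference. Other redox genes ranged from 0 to 1, 9 to 16, 102 to 106, 97 to 106 and 0 to 0 in that order. The 10 genes ranged from 0 to 0, 1 to 3, 9 to 9, 10 to 10 and 0 to 1. The lowest 2-cell count was without ROSI 2-cell replicate 2, and the highest zygote count, 84, was without ROSI zygote replicate 2, which leaves 1 library that is assumed to vary like the other groups. The cause of these changes was not tested. Depth limits Txn1 in 2-cell embryos (19 to 111 reads) and Selenos in zygotes (25 to 113 reads). It also limits Prdx4 in zygotes (41 to 116 reads) and Prdx3 in ICSI 2-cell replicate 1 (23 reads).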

Other observations

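Keap1, which acts on NRF2, and Srxn1, which acts on peroxiredoxins, were chosen after their values were seen. Keap1, which encodes the sensor that holds NRF2 in check, was at 4.33 ± 1.02 TPM in ROSI 2-cell embryos and 3.21 ± 0.335 TPM in ICSI 2-cell embryos (SD, n = 3 each), and the libraries overlapped. Srxn1, which encodes sulfiredoxin, the enzyme that repairs over-oxidised peroxiredoxins, rose to 5.21 TPM in ROSI 2-cell embryos, against 0.539 TPM in ROSI zygotes (2.02, SE 0.21, limma adjusted p = 7.95e-06). After ICSI it rose to 4.02 TPM in 2-cell embryos, against 0.311 TPM in zygotes (1.93, SE 0.19, limma adjusted p = 4.30e-06).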
